A study of Mus musculus with 16 samples.

Results

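The data described here are the RNA levels of 10 genes of insulin and insulin-like growth factor signalling in leukaemia cells taken from bone marrow or from the central nervous system. The genes encode a pair of receptors (Insr and Igf1r), both major insulin receptor substrates (Irs1 and Irs2), a catalytic subunit, a regulatory subunit and an inhibitor of phosphoinositide 3-kinase (Pik3cd, Pik3r1 and Pik3ip1), the kinase Akt1, and the transcription factors Foxo1 and Foxo3. They were matched by symbol to 10 of the 55414 mouse Ensembl gene identifiers in the count table, and all 10 were among the 18878 identifiers that averaged 10 or more counts and were tested. The genes were chosen by earlier results on their levels in these libraries and the spread of those levels between libraries, so both are given as descriptions without a test.

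The 16 bulk RNA libraries came from one genotype throughout: mouse leukaemia cells with the Kmt2a-AFF1 fusion and forced expression of the microRNA miR-128a, labelled as pro-B acute lymphoblastic leukaemia. Lineage-negative cells were sorted as leukaemia-propagating cells (LPC) into a Sca1-positive, cKit-positive, IL7R-positive fraction (LSK) or a Sca1-negative, cKit-positive fraction (LK, which the labels also call CLP). With bone marrow (BM) and central nervous system (CNS) as niches, this gave 4 groups of 4 libraries each. The groups shared both the fusion and the microRNA, no group lacked either, and age, strain, the means of driving the fusion and the microRNA and the number of animals behind a library were not given in the sources used here. A BM and a CNS library of the same LPC type and number also share the stem of their sample code, which gives 8 stems, named here LSK 1 to 4 and LK 1 to 4. What a stem stands for is not given, nor what the shared opening of the codes of same-numbered LSK and LK stems means. It is also not given whether libraries came from separate animals, so p-values measure only the spread between these libraries.

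When insulin or an insulin-like growth factor binds, the receptor phosphorylates its substrates, which dock the regulatory subunit of PI3K and bring the catalytic subunit to the membrane. The lipid made there recruits AKT, which phosphorylates FOXO factors and keeps them out of the nucleus, so that their target genes fall silent. In developing lymphocytes FOXO factors are known for driving the recombinase genes, the IL-7 receptor and trafficking molecules, and PI3K delta is the catalytic form typical of leukocytes.

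All libraries came from cells that overexpress miR-128a, and Insr, Irs1 and Pik3r1 have been described as its targets in muscle cells, so its sequence and its matches in the members are shown here. The mature form is listed in RefSeq (GRCm38.p6) as miR-128-3p at chr1:128202404-128202424 on the plus strand and chr9:112118644-112118664 on the minus strand. Capitals mark the seed, bases 2 to 8:
miR-128-3p: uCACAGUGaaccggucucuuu
Matches to the seed (the letters CACTGTG on the transcript strand, which is the strand searched) were found in the 3′ untranslated regions of 6 of the 10 genes in GENCODE M21, and 18.94% of all 21028 such regions held one. Each match below is shown in capitals with its neighbouring bases:
Irs1: caacaagaaagCACTGTGacac
Irs2: gggccacatagCACTGTGtgtg
Insr: gtgggcagtatCACTGTGagag
Igf1r: ctgaggcccccCACTGTGcccg
Pik3r1, first: cagacacatcaCACTGTGgatt
Pik3r1, second: aagtgggtggtCACTGTGcttt
Foxo1, first: gaggtttgcctCACTGTGctta
Foxo1, second: agacttaccatCACTGTGtaaa
The Irs1 match lies at bases 230 to 236 of its 3′ untranslated region and the Insr match at bases 3851 to 3857, and both are followed by an A. No such match was in the annotated regions of Pik3cd, Pik3ip1, Akt1 or Foxo3. Long regions hold a match more often: among regions within 20% of the length of that of Irs1, 48.95% held one, against 14.77% at the length of that of Akt1. Because no library lacked the microRNA, its effect on these genes cannot be told apart from the rest of the background they share.

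Depth ran from 19.2 to 29.2 M counts per library (M for mega, median 23.4 M), and protein-coding genes took 8.60 to 13.6 M of them. Counts in 1462 olfactory and vomeronasal receptor genes, which these cells are not known to use, serve as a background level, at 0.0320 to 0.106 CPM (counts per M counts of the library) per kilobase of exon. The labelled cell type was checked against marker genes. The 8 pro-B markers summed to 1.78 to 8.12 CPM, with 0 of 8 over a mean of 10 CPM, Pax5 at 0.593 and Igll1 at 0 in 3 libraries. The 10 T cell markers summed to 1085 to 1350 CPM, and 5 of 10 were over 10 CPM, led by Tcf7 at 577 and Bcl11b at 291, while Cd3e stood at 0.276. The RNA levels therefore go against the pro-B label, and the cells are called here by their sort gates. Of the sort antigens, Ly6a, which encodes Sca1, was low in both fractions but higher in LSK (0.940 to 2.26 CPM) than in LK (0.466 to 0.903 CPM), with a log2 difference of 1.30 ± 0.214 (SE, adjusted p = 0.0117). The adjusted p values of the sort antigens come from an edgeR fit that counts the BM and CNS libraries of a stem as independent. With BM and CNS counts summed per stem, that comparison called 0 genes of the table. Kit stood at means of 141 CPM in LSK and 136 CPM in LK (adjusted p = 0.803), and Il7r at 80.9 and 85.1 CPM (adjusted p = 0.804). Markers of myeloid cells, microglia and erythroid cells each summed to under 10 CPM in all libraries, and of the neural and glial markers Mbp alone, at a mean of 36.2 CPM, was over 10.

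Per kilobase of exon, the one scale on which genes can be ranked against each other, Pik3cd had the highest mean level over the 16 libraries (34.4 CPM per kb), followed by Akt1 (28.6), Foxo3 (18.8), Irs2 (16.4) and Pik3r1 (12.7). Pik3ip1 (7.56), Insr (3.53), Igf1r (1.52), Foxo1 (1.04) and Irs1 (0.158) were lower. The places of Pik3cd and Irs2 in this order depended on the library, since both spanned the levels of several other genes. Irs1 lay only 1.58 to 5.48 times above the level that the receptor background predicts for its length, whereas Irs2 lay at least 5.72 times above it in every library. The mean of Irs2 exceeded that of Irs1 in each group.

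**Figure D1:**
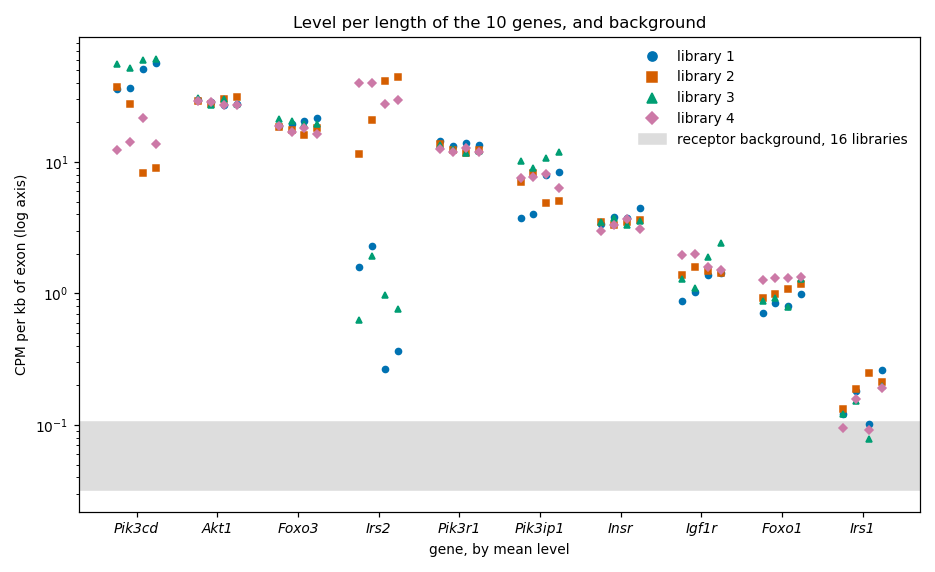
Level of each gene per kilobase of exon (CPM per kb, log axis), with 1 point per library, coloured by the library's number and offset by group, with LSK to the left of LK and BM to the left of CNS; the grey band spans the receptor background of 0.0320 to 0.106 CPM per kb over the 16 libraries. Irs1 overlaps the upper part of the band, with its lowest BM libraries inside it, although each library was above its own background. Irs2 and Pik3cd are the most widely scattered genes.

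Irs2 (ENSMUSG00000038894, chromosome 8) had the widest range of the 10 genes. Its levels were 10.1, 72.2, 3.96 and 252 CPM in BM LSK libraries 1 to 4, and 14.6, 132, 12.3 and 252 CPM in CNS LSK libraries 1 to 4. In LK it stood at 1.68, 260, 6.18 and 176 CPM in BM and at 2.29, 278, 4.86 and 186 CPM in CNS. Libraries numbered 1 and 3 were low and libraries numbered 2 and 4 were high in every group, and the ranges of all groups overlapped. In a bulk library, fewer cells with a transcript and less of it per cell cannot be told apart. The highest library was 165 times the lowest, and within a group the highest was 63.8 times the lowest in BM LSK, 20.5 times in CNS LSK, 154 times in BM LK and 121 times in CNS LK. Group means were therefore close beside their SDs: 84.7 ± 116 CPM in BM LSK, 103 ± 114 in CNS LSK, 111 ± 128 in BM LK and 118 ± 137 in CNS LK (SD, n = 4 each).

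The BM and CNS libraries of a stem were near each other in Irs2. The CNS level was 1.44, 1.83, 3.10 and 0.998 times the BM level in stems LSK 1 to 4, and 1.36, 1.07, 0.786 and 1.06 times in stems LK 1 to 4. The SD between stem means within an LPC type was 2.96 on the log2(CPM + 0.5) scale, against a within-stem value of 0.333. The within-stem value is the root mean square of the differences between CNS and BM, divided by 2, so it includes any shift between niches. Among the 11828 genes with a mean of at least 50 counts, whose median SD between stems was 0.129, Irs2 ranked 1 for this spread, and it also ranked 1 of all 18878 genes tested. On that log2 scale both libraries lay on the same side of their group means in all 8 stems; in CPM, stem LSK 2 was below the mean in BM and above it in CNS. Whether the number of a library ties an LSK stem to an LK stem is not stated. The sample codes of an LSK and an LK stem of the same number do open with the same digits, so the 8 stems may not be unrelated. Over all genes, the deviations of same-numbered LSK and LK libraries correlated above 0.1 in 4 of 8 cases.

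Pik3cd (ENSMUSG00000039936, chromosome 4), which encodes the catalytic subunit p110 delta, varied by stem as well. Its high and low stems were mostly placed the other way around, though stem LSK 2 was above LSK 1 in BM. Levels were 223, 232, 347 and 76.9 CPM in BM LSK libraries 1 to 4, and 230, 174, 324 and 89.0 CPM in CNS LSK libraries. The LK libraries stood at 320, 51.4, 372 and 134 CPM in BM and at 354, 56.5, 381 and 85.6 CPM in CNS. All groups overlapped, with means of 220 ± 111 CPM in BM LSK, 204 ± 98.5 in CNS LSK, 220 ± 152 in BM LK and 219 ± 172 in CNS LK (SD, n = 4 each). The highest library was 7.40 times the lowest. Its SD between stems was 1.12 on the log2 scale, which ranked 15 of 11828 genes, against a within-stem value of 0.147. The CNS level was between 0.637 and 1.16 times the BM level in the 8 stems.

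Set side by side, the stem with the highest Irs2, LK 2 (260 and 278 CPM), had the lowest Pik3cd (51.4 and 56.5 CPM). Stems LSK 4 and LK 4, with Irs2 between 176 and 252 CPM, had Pik3cd between 76.9 and 134 CPM. Stem LSK 2 was in between on Irs2, at 72.2 and 132 CPM, and had 232 CPM of Pik3cd in BM, above both libraries of LSK 1, and 174 CPM in CNS. The other 4 stems had Irs2 at or below 14.6 CPM and Pik3cd at or above 223 CPM. Within those 4 the order was not mirrored exactly, since LK 3 had both more Irs2 and more Pik3cd than LK 1. No correlation is given, because the 16 libraries are 8 pairs and the levels of Irs2 fall into separate ranges.

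**Figure D2:**
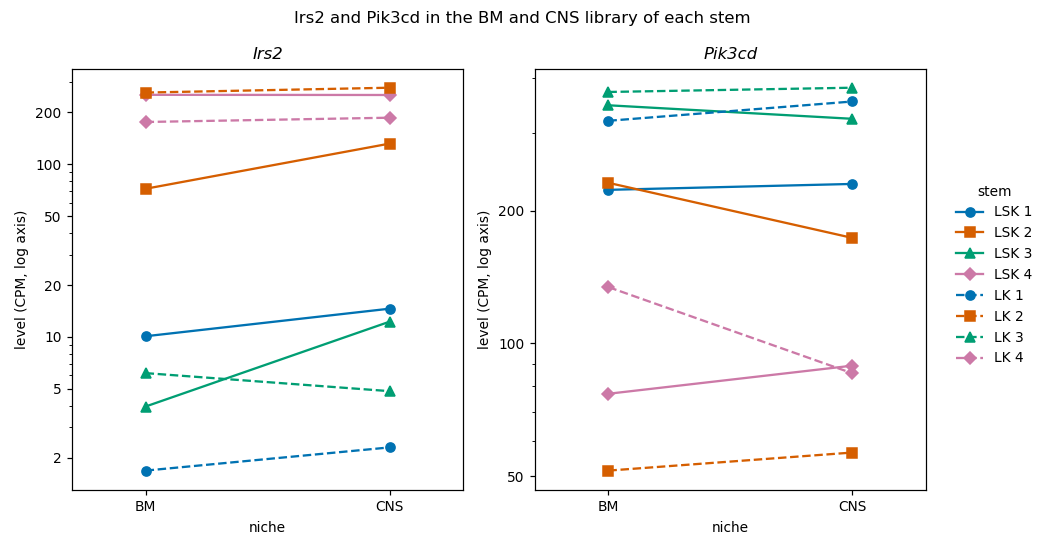
Level of Irs2 (left) and Pik3cd (right) in CPM on log axes in the BM and the CNS library of each stem, with 1 line per stem, solid for LSK and dashed for LK. The lines run close to level, and LK 2 is the top line for Irs2 and the bottom line for Pik3cd.

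Genes next to Irs2 and Pik3cd in GENCODE M21 had smaller SDs between stems. Col4a1, the neighbour of Irs2 on one side, stood at a mean of 2.69 CPM with an SD between stems of 0.20 on the log2 scale, and Abhd13, a few genes away on the other side, at 23.2 CPM with an SD of 0.074. Myo16, directly next to Irs2 on that other side, had an SD of 0.334 at a mean of 0.622 CPM. The widest of the neighbours examined, Col4a2, had an SD of 0.435 at a mean of 0.712 CPM. Several neighbours, among them Col4a2 and Myo16 (0.072 to 1.12 CPM), were so low that adding 0.5 CPM narrows their SDs. Those SDs cannot be set directly against that of Irs2. An overlapping transcript on the opposite strand of Irs2, 9530052E02Rik, had a mean of 0.173 CPM. For Pik3cd, the neighbours Tmem201 (26.3 CPM) and Clstn1 (10.3 CPM) had SDs of 0.14 and 0.19. Whether the counting used strand is not given, but the level of the overlapping transcript is far below that of Irs2 in all libraries.

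The genes most like Irs2 over the 16 libraries, out of 9584 protein-coding genes compared by Pearson's r of log2(CPM + 0.5), were Arhgap18 (r = 0.976), Arhgef10l (r = 0.925) and Mid1 (r = 0.918). Arhgap18, which encodes a GTPase-activating protein, ran from 0.978 to 7.53 CPM. These are descriptions over libraries that share stems and fall into low and high Irs2 levels. For Irs1 the closest genes were Rragd (r = 0.769), Epb41l4a (r = 0.758) and Calhm2 (r = 0.756). They were picked as the highest of 9584 values of r over 16 libraries, for a gene with few counts. Whether unrelated genes would reach such values was not tested.

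The remaining members were less spread between stems, as the plot of spread against level shows. Pik3ip1 (SD 0.52 on the log2 scale, rank 174 of 11828) and Igf1r (SD 0.37, rank 466) were still above the median gene, and Foxo1 (SD 0.26) ranked 1226. Foxo3 (SD 0.13), Insr (0.11), Pik3r1 (0.084) and Akt1 (0.055) ranked 5773, 7419, 9369 and 11286, so Akt1 was among the steadiest genes of the table on this scaling. On plain library totals the SD was 0.071 for Akt1 and 0.112 for Foxo3. Irs1, with a mean under 50 counts, had an SD of 0.22 between stems and a within-stem value of 0.311. It was the only member whose within-stem value was the larger of the pair. That value includes its shift between niches, so it does not show that Irs1 varied more within stems than between.

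**Figure D3:**
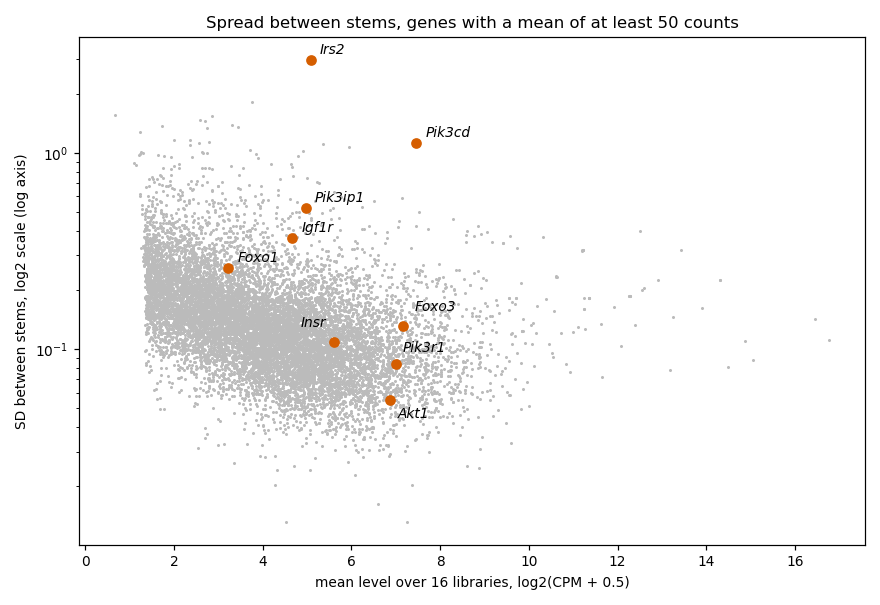
SD between stems of the same LPC type (log axis; SD of log2(CPM + 0.5) stem means) against mean level over the 16 libraries, with 1 grey point for each of the 11828 genes that average 50 or more counts, and labelled orange points for 9 members; Irs1 is below that mean. Irs2 is the top point and Pik3cd also stands above the cloud, while Akt1 lies near its lower edge.

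Of the receptors, Insr, the insulin receptor, was the steadier. Its levels were 46.3, 47.8, 47.8 and 41.3 CPM in BM LSK, 52.4, 45.7, 51.9 and 45.9 CPM in CNS LSK, 51.6, 48.2, 45.7 and 50.5 CPM in BM LK, and 61.2, 49.5, 48.5 and 42.5 CPM in CNS LK. The groups overlapped, with means from 45.8 ± 3.06 CPM in BM LSK to 50.4 ± 7.79 in CNS LK (SD, n = 4). Igf1r, the receptor for insulin-like growth factor 1, stood at 14.7, 23.2, 21.7 and 32.7 CPM in BM LSK and at 17.2, 26.8, 18.6 and 33.4 CPM in CNS LSK. In LK its values were 23.2, 24.8, 31.6 and 26.6 CPM in BM and 24.1, 24.0, 40.9 and 25.5 CPM in CNS. Stem LSK 4 was highest among LSK in both niches, stem LK 3 was highest among LK in both niches, and the groups overlapped.

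Irs1 (ENSMUSG00000055980, chromosome 1), the other major receptor substrate, was rare, with 15 to 63 counts per library. Levels were 1.12, 1.20, 1.11 and 0.869 CPM in BM LSK and 1.65, 1.73, 1.39 and 1.45 CPM in CNS LSK. In LK they were 0.932, 2.25, 0.718 and 0.838 CPM in BM and 2.40, 1.95, 1.81 and 1.74 CPM in CNS. All CNS LSK libraries lay above all BM LSK libraries and, by a margin as small as 1.73 against 1.74 CPM, below all CNS LK libraries, while in LK the niches overlapped through BM LK library 2. The CNS library was the higher in 7 of 8 stems. The receptor background moved the same way: it was 0.0320 to 0.0816 CPM per kb in BM LSK, 0.0725 to 0.106 in CNS LSK, 0.0343 to 0.0487 in BM LK and 0.0389 to 0.0935 in CNS LK. Scaled to the length of Irs1, it came to means of 0.557 CPM in BM LSK, 0.815 in CNS LSK, 0.403 in BM LK and 0.584 in CNS LK, against Irs1 means of 1.07 ± 0.143, 1.55 ± 0.160, 1.19 ± 0.718 and 1.97 ± 0.299 (SD, n = 4). With the background as a covariate in the edgeR fit, the log2 change of Irs1 between niches was 0.55, against 0.62 without it (adjusted p = 0.392). The covariate fit called 0 genes of the table, and all 10 members had the same adjusted p of 0.9996 in it.

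Pik3r1, which encodes the regulatory subunit p85 alpha and its shorter forms, was nearly level over the libraries. It stood at 145, 139, 135 and 126 CPM in BM LSK, 134, 125, 127 and 119 CPM in CNS LSK, 140, 118, 119 and 129 CPM in BM LK, and 136, 124, 122 and 120 CPM in CNS LK. Pik3ip1, a membrane protein that restrains PI3K, ran by stem from 15.9 and 17.2 CPM in LSK 1 to 46.0 and 50.6 CPM in LK 3. Its other stems stood at 30.2 and 35.5 CPM in LSK 2, 43.4 and 38.7 CPM in LSK 3, 32.4 and 32.8 CPM in LSK 4, 34.2 and 36.0 CPM in LK 1, 20.8 and 21.7 CPM in LK 2, and 34.3 and 27.1 CPM in LK 4 (BM first). Within LK, Pik3ip1 was lowest in stem LK 2, where Pik3cd was also lowest, and highest in stem LK 3, where Pik3cd was also highest. In LSK stem LSK 3 was likewise highest in both, but stem LSK 1 was lowest in Pik3ip1 and stem LSK 4 lowest in Pik3cd.

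Akt1, the kinase between PI3K and the FOXO factors, stood at 120, 119, 125 and 119 CPM in BM LSK and at 117, 113, 112 and 118 CPM in CNS LSK. In LK it was at 112, 124, 124 and 111 CPM in BM and at 114, 127, 112 and 112 CPM in CNS. The CNS LSK libraries lay below all BM LSK libraries by a small margin, with means of 115 ± 2.81 and 121 ± 3.01 CPM (SD, n = 4), and the LK niches overlapped. That separation depended on the scaling: on plain library totals the CNS LSK libraries ran from 112 to 123.3 CPM and the BM LSK libraries from 118 to 123.1 CPM, so the niches overlapped.

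Foxo1, the FOXO factor best known from B cell development, was much the lower of the pair per length. Its levels were 6.17, 7.94, 7.56 and 11.0 CPM in BM LSK and 7.34, 8.59, 8.01 and 11.3 CPM in CNS LSK. In LK they were 6.95, 9.30, 6.80 and 11.3 CPM in BM and 8.65, 10.2, 11.2 and 11.5 CPM in CNS. Library 4 was the highest of each group, the groups overlapped, and the CNS library was the higher in 8 of 8 stems, by a median of 0.12 on the log2 scale (0.018 to 0.72). Foxo3 stood at 142, 139, 162 and 141 CPM in BM LSK, 147, 133, 156 and 127 CPM in CNS LSK, 156, 122, 148 and 137 CPM in BM LK, and 164, 136, 146 and 124 CPM in CNS LK. Libraries 1 and 3 had more Foxo3 on average (152 and 153 CPM) than libraries 2 and 4 (133 and 132 CPM), and all groups overlapped.

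**Figure D4:**
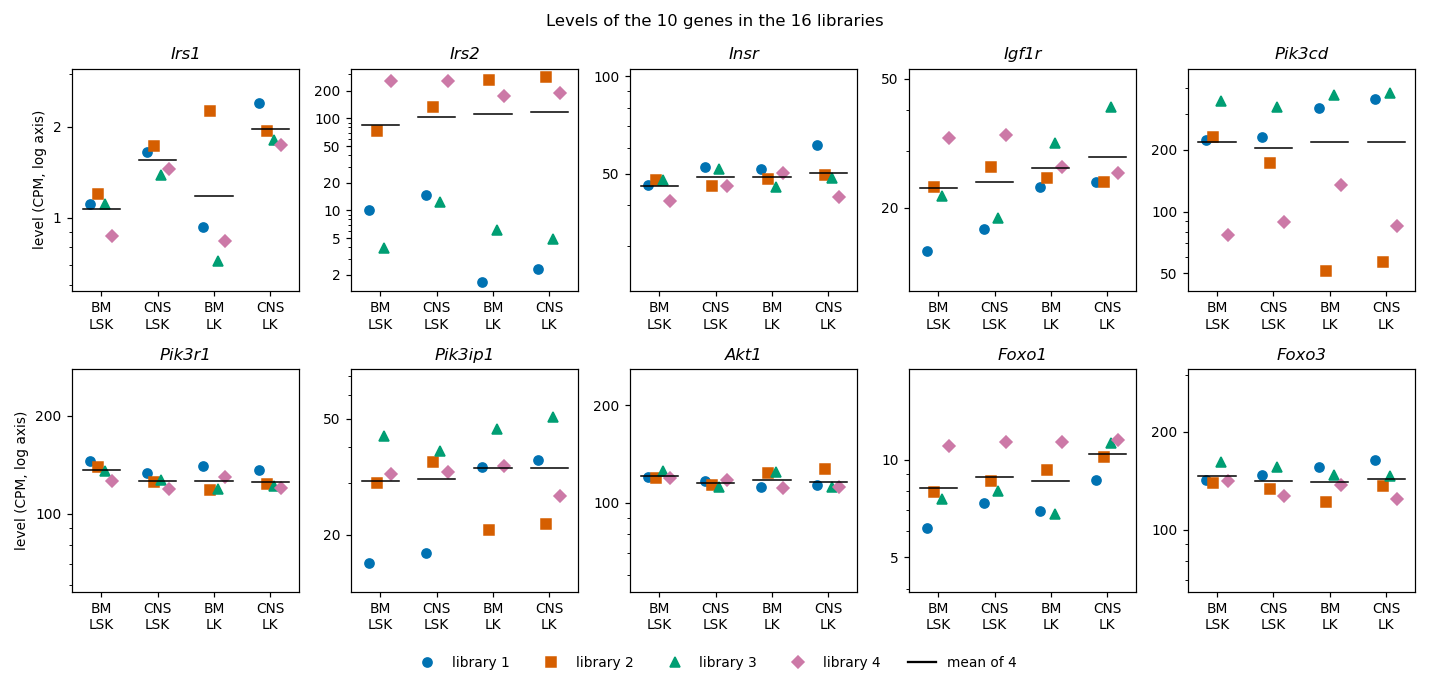
Level of each of the 10 genes in each library (CPM, log axis, 1 panel per gene with its own scale), by group, with a symbol per library number and a bar at the mean of 4 libraries. The scatter of Irs2 and Pik3cd within each group is wider than the distance between group means, and Akt1 and Pik3r1 show almost none.

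The study asked whether leukaemia-propagating cells differ by niche and by LPC type. Between CNS and BM, none of the 10 genes passed edgeR's quasi-likelihood test with Benjamini-Hochberg adjustment at 0.05, neither over both LPC types nor within LSK or within LK. The share of all 18878 genes called was 0% in each of these 3 comparisons, so the count of members is that of the whole table. Over both LPC types, 1 member (Irs1) was at an unadjusted p under 0.05, against 1727 genes of the table, and DESeq2 called 40 genes but no member. Within LSK there were 0 such members against 1083 genes, and within LK 1 (Irs1) against 754. Irs1 was the largest change at 0.62 ± 0.213 on the log2 scale (SE; 95% interval 0.17 to 1.07, adjusted p = 0.392), higher in CNS in 7 of 8 stems, beside 7.66% of all genes that were higher in CNS in at least 7. No member was lower in CNS in at least 7 stems, as 6.64% of all genes were. Foxo1 came next at 0.19 ± 0.132 (95% interval -0.09 to 0.46, adjusted p = 0.728), higher in 8 of 8 stems, as were 1.49% of all genes.

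For the widely spread genes the comparison of niches had little precision. The change of Irs2 was 0.18 ± 0.957 (95% interval -1.82 to 2.18, adjusted p = 0.985) and that of Pik3cd was -0.055 ± 0.420 (-0.93 to 0.82, adjusted p = 0.990). With stems as a block, the interval for Irs2 narrowed to 0.11 to 0.56 around 0.33 (unadjusted p = 0.00611, adjusted p = 0.190), and the CNS library was the higher in 6 of 8 stems. That fit called 126 genes of the table (0.667%) but again 0 of the 10 members, with Irs1 at 0.68 ± 0.206 (adjusted p = 0.165) and Foxo1 at 0.20 ± 0.080 (adjusted p = 0.288). Within LSK alone and LK alone the block called 0.138% and 0.0636% of genes, and 0 members in both. The blocked change of Irs2 was 0.62 in LSK (95% interval 0.31 to 0.93, unadjusted p = 5.21e-04, adjusted p = 0.133) and 0.049 in LK (-0.28 to 0.38, adjusted p = 0.977). The blocked interaction, which tests that difference, was 0.57 (0.12 to 1.02, unadjusted p = 0.0163, adjusted p = 1). Insr (0.068 ± 0.065), Pik3r1 (-0.061 ± 0.050), Akt1 (-0.047 ± 0.044) and Foxo3 (-0.016 ± 0.067) were estimated tightly and had adjusted p from 0.778 to 0.982 without a block. The median change of the 10 genes was 0.040, beside 0.00 for all genes tested.

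Groups that do not overlap were counted next. In LSK, Irs1 (CNS higher) and Akt1 (CNS lower) had niches that did not overlap, 2 of 10 members, beside 3.68% of all genes. On plain totals Irs1 alone remained, 1 of 10, beside 3.26%. Counting separations with CNS higher alone, the members were 1 of 10, beside 2.09%. In LK the count was 0 of 10, beside 2.18%, or 1.37% with CNS higher alone. Between LPC types, Irs1 alone was separated in CNS (LSK lower), beside 3.65% of all genes, and 0 of 10 in BM, beside 3.13%.

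Between LSK and LK, over both niches, 0 of the 10 genes passed the same test, beside 0.238% of all genes (45, of which 43 were higher in LSK). This fit counts the libraries of a stem as independent: with BM and CNS counts summed per stem, the 45 calls became 0, and the members stayed at 0. At an unadjusted p under 0.05 there was also no member, against 2288 genes of the table, and DESeq2 called no member. The member with the lowest adjusted p was Igf1r, at -0.22 ± 0.159 for LSK minus LK (SE, adjusted p = 0.605), and Irs1 was at -0.25 (adjusted p = 0.685). Irs2 was at -0.30 ± 0.958 (95% interval -2.30 to 1.71, adjusted p = 0.936) and Pik3cd at -0.050 (adjusted p = 0.979). The median change of the 10 genes was -0.10, with 3 of 10 above 0, beside -0.011 for all genes. Within BM, within CNS and for the interaction of niche and LPC type, edgeR called 0 of 10 members and 0% of all genes, with the lowest adjusted p of a member at 0.871, 0.820 and 1.00, and 0 members at an unadjusted p under 0.05 in each. These are fits without a block; with stems as a block, Irs2 was under 0.05 unadjusted for the interaction, as given above.

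**Figure D5:**
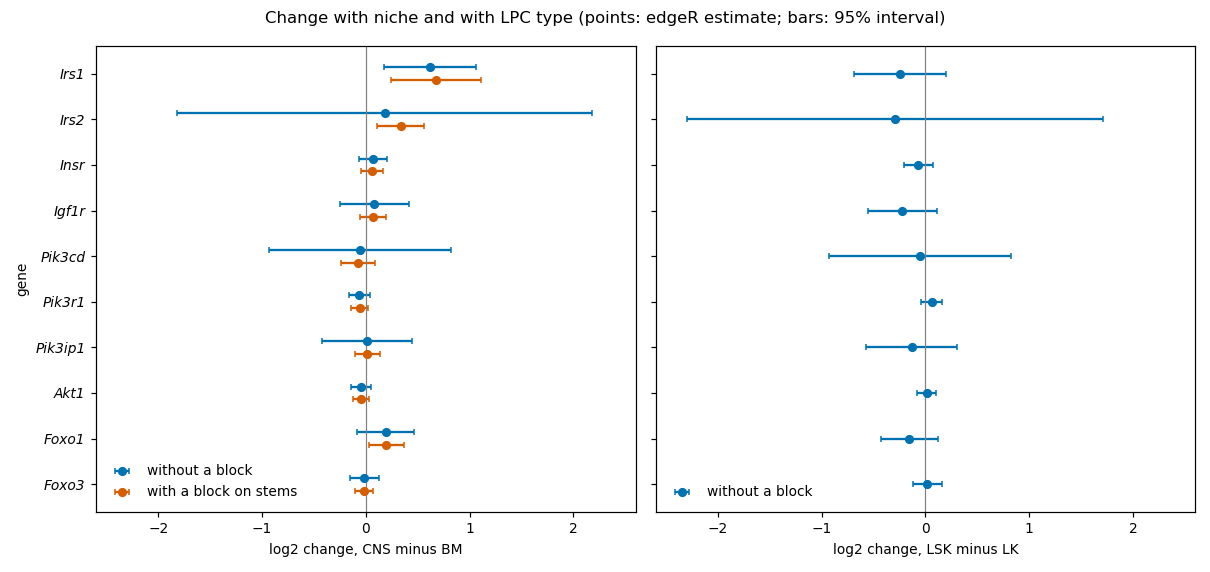
Estimated log2 change of each gene with its 95% interval from edgeR, CNS minus BM over both LPC types (left; blue without a block, orange with a block on stems) and LSK minus LK over both niches (right; without a block). The intervals of Irs2 and Pik3cd are the widest without a block, and the stem block shortens them on the left; no member passed the adjusted threshold in either fit.

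Of a list of 73 other genes of the pathway, all 73 were in the table, 63 were tested, and 0 passed the test in any of the 7 contrasts. Between niches 40 of the 63 were estimated higher in CNS, with a median change of 0.044, beside -4.3e-07 for all genes tested. Among them were 15 of 21 FOXO target genes and 6 of 7 phosphatases, but 6 of 15 downstream kinases and 3 of 7 PI3K subunits. Some were near background, such as Igf1 at 0.871 times it, and the receptor background itself had higher means in CNS. Between LPC types 33 of the 63 were higher in LSK, with a median of 0.0046, beside -0.011 for all genes tested. By role, the 4 ligands were at or near background, with Igf1 at a mean of 0.557 CPM and Ins2 at 0.116 CPM. Of the receptors and traps, Igf2r, which clears IGF2 from the cell surface, stood at 109 CPM and the secreted binding protein gene Igfbp4 at 1.07 CPM. Among adaptors Sh2b1 (47.9 CPM) and Grb2 (38.0 CPM) were the most counted, and among the other PI3K subunits Pik3r2 (50.1 CPM) and Pik3ca (45.1 CPM).

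Of the phosphatases, Inpp5d, which encodes the blood cell enzyme SHIP1, stood at 88.8 CPM. The 15 kinases and partners downstream, led by Mtor (208 CPM) and Rptor (84.0 CPM), had a median SD between stems of 0.068. The median was 0.168 for all genes tested and 0.129 for genes with a mean of at least 50 counts. Foxo4 was at 14.1 CPM, with a niche change of 0.20 (adjusted p = 0.387), and Foxo6 at 0.188 CPM. Of 22 listed FOXO target genes, 21 were tested, and the most counted were Rag1, the recombinase gene (275 CPM), and Il7r, the interleukin-7 receptor (83.0 CPM), which was also a sort antigen of LSK.

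Because FOXO factors bind promoters and several members varied by stem, the members' promoters were searched for the FOXO motif. RefSeq promoters (GRCm38.p6, 300 bases each) matched 9 of the 10 genes, with 13 promoters in all. The motif GTAAACA, searched on both strands, occurred in 1 of the 13, beside 3.65% of 32851 promoters. That one belongs to Akt1, the steadiest member, and is shown with its match on the opposite strand in capitals (chr12:112675022-112675062, minus strand of the genome, first base of the match at position -161 from the start site):
Akt1: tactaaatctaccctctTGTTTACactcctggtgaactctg
A match is a description of letters only, and its absence from the window of Irs2, Pik3cd and the other genes says nothing of factors acting elsewhere.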

How the data were processed

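Per the labels' protocols, RNA of freshly sorted cells went into stranded total RNA libraries made for small inputs. The submitters' processing notes name DESeq2 and GRCm39, without saying for which step; the aligner, counter and annotation are not given in the sources used here. The deposited table is named as normalised, but it holds whole-number counts with unequal totals and median-of-ratios size factors from 0.804 to 1.302, so the deposited counts were treated as raw. Symbols were matched by identifier for 52081 of 55414 identifiers, and those without a symbol held 41.8% of the counts. Those averaging 10 or more counts were kept (18878).

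With edgeR 4.0.16 in R 4.3.3, TMM scaling and a model of 4 group means without a block were used. Its two-sided quasi-likelihood test was applied to 7 contrasts, with Benjamini-Hochberg adjustment over all identifiers at 0.05, after the scripts were tested on simulated data. CPM values are on TMM-scaled totals, log2 levels add 0.5 CPM, and exon lengths come from GENCODE M21 (GRCm38), another build than the submitters name, so per-kilobase levels are approximate. Chi-square over degrees of freedom was 10.6 to 41.6 for the 24 library pairs within groups, above sampling noise, so none was counted as a duplicate. Counts may not be independent molecules, and reads shared by overlapping genes cannot be separated.

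Whether stems pair libraries was checked by correlating deviations from group means across genes: all 8 stems were above 0.1 (0.112 to 0.339), so a block on stems was fitted beside the main design. Alternatives were DESeq2 1.42.0, limma 3.58.1 on log2(CPM + 1), other filters and scalings, the receptor background as covariate, blocks, and leaving out each library or stem. Leaving out whole stems, and overlap on plain totals, were chosen after seeing the data. All 10 members are named; of the list of 73 pathway genes, those past the threshold and the 2 with the highest CPM per role; and the 3 genes most like Irs1 and Irs2. Some genes that this rule or the marker lists name are not reported here. The members and lists were chosen with earlier results of these data known.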

Additional observations from a re-analysis of the deposited data

Results flagged for a closer look

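In 4 of the 40 sets of 4 libraries examined (10 genes in 4 groups), 1 library stood far from the other 3, where chance gives about 2, or 1 in 20. Irs1 was at 2.25 CPM in BM LK library 2, against 0.718 to 0.932 CPM in the other BM LK libraries. Igf1r was at 40.9 CPM in CNS LK library 3, against 24.0 to 25.5 CPM. Akt1 was at 127 CPM in CNS LK library 2, against 112 to 114 CPM. Foxo3 was at 162 CPM in BM LSK library 3, against 139 to 142 CPM.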

How the results depend on the processing

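The count of 0 members called held in each of the 7 contrasts under every alternative run for it, each library and each stem left out included. The blocks and the summed counts were fitted for some of the contrasts only, and a minimum mean of 50 counts leaves Irs1 untested. Counts over all genes did not hold. Between niches the 0 calls became 85 without a filter, 40 with DESeq2, 126 with the replicate block on stems and 19 with that block and the background covariate. Between LPC types the 45 became 290 without a filter, 222 with DESeq2, 9 with the covariate, 162 with a block on numbers and 0 with counts summed per stem. Leaving out 1 library gave 15 (without CNS LK 3) to 138 (without CNS LSK 2). Blocking on stems or numbers changed no call of a member. Some changes switched sign, none past the threshold. Between niches these were Pik3ip1 (-0.052 without a filter), Foxo3 (0.0092 with a minimum mean of 50 counts, 0.046 with the covariate and 0.046 with block and covariate) and Pik3cd (0.088 with block and covariate). Between LPC types they were Akt1 (-0.046) and Foxo3 (-0.039) without a filter, Irs2 (0.37 with limma, 0.20 with the number block) and Pik3cd (0.19 and 0.15 in those fits). Leaving out a library or stem moved the niche change of Irs2 over -0.28 to 0.95, Pik3ip1 -0.12 to 0.12, Pik3cd -0.26 to 0.13, Foxo3 -0.053 to 0.016 and Igf1r -0.029 to 0.19. It moved the LPC type change of Irs2 over -1.52 to 0.55, Pik3cd -0.36 to 0.34, Pik3ip1 -0.30 to 0.089, Irs1 -0.35 to 0.026, Foxo3 -0.035 to 0.080 and Akt1 -0.011 to 0.058. The cause was not tested. Irs1 had 15 to 63 counts per library, which limits its precision.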
